A study of Homo sapiens with 12 samples.

Results

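NRF2, the transcription factor encoded by NFE2L2, drives the genes that cells use against oxidants and reactive compounds. These are 10 genes of its pathway, chosen by symbol as known genes of the pathway: NFE2L2 itself, KEAP1, NQO1, HMOX1, GCLC, GCLM, TXNRD1, SRXN1, SQSTM1 and FTH1. All 10 were among the 30017 gene symbols of the table, and all 10 passed the filter on low counts that left 16010 symbols for testing. PolyA RNA was sequenced from THP-1, a human line of monocytic leukaemia cells, in 12 libraries that form 4 groups of 3. The groups are wild-type cells under DMSO, wild-type cells under 50 nM CC-885, IRAK4 knockout cells under DMSO and IRAK4 knockout cells under 50 nM CC-885, with 12 h of exposure in all. The small molecule CC-885 makes the ubiquitin ligase receptor cereblon take up new substrates, among them the translation termination factor GSPT1. IRAK4 is a kinase of the Toll-like and interleukin-1 receptor pathway.

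Cells of both genotypes had been electroporated and grown up from single cells, and clones were picked by PCR and Sanger sequencing. The treatment protocol gives Cas9 with or without the guide RNA against IRAK4, whereas the design text joins Cas9 and guide, so whether wild-type cells received Cas9 alone is not settled by the labels. How many clones stand behind each genotype is not given, and the effect of the knockout cannot be told apart from differences between clones. Nor do the labels say that the libraries of a group are separate cultures, so p-values measure only the spread between these libraries, which may be technical.

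In an unstressed cell the adaptor KEAP1 holds NRF2 and hands it to the CUL3 ubiquitin ligase, and NRF2 is degraded. Oxidants and electrophiles modify KEAP1, NRF2 escapes, pairs with a small MAF protein and binds antioxidant response elements, while BACH1 competes for the same elements. Macrophages and monocytes rely on the pathway during the oxidative burst and when they take up haem and iron. RNA levels give neither the amount nor the activity of the NRF2 protein.

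The sequences just upstream of these genes were read because members of the set moved together and in opposite directions. RefSeq promoters (GRCh38.p14) matched 8 of the 10 genes by symbol, with 13 start sites, and HMOX1 and FTH1 were not among them. Each window covered the 250 bases before a start. The core of the antioxidant response element was searched on both strands as TGACNNNGC, and it occurred in 4 of the 13 windows, belonging to KEAP1, GCLM and TXNRD1. Among all 35116 promoter windows of the same length, 3830 (10.9%) held it. The related AP-1 element TGANTCA occurred in 0 of the 13 windows and in 2308 (6.57%) of all windows. A match describes letters and not a bound site. The 5 matches are shown on the strand of the gene, 5′ to 3′, with the core in capitals.
KEAP1, chr19:10502806-10502835, minus strand, 45 bases before the start: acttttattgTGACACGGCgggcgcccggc
KEAP1, chr19:10502783-10502812, minus strand, 22 bases before the start: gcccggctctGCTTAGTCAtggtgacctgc
GCLM, chr1:93909445-93909474, minus strand, 25 bases before the start: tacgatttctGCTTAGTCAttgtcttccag
TXNRD1, chr12:104215670-104215699, plus strand, 90 bases before one start: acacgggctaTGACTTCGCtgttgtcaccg
TXNRD1, chr12:104286920-104286949, plus strand, 93 bases before another start: gtggatttctGCTTTGTCAttctgactctg

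KEAP1 and GCLM carried the same core, TGACTAAGC when read on the strand opposite to the gene. GCLM and TXNRD1 are shown with the whole window as examples of genes with a match. Their RNA fell in both genotypes and fell further in the knockout, but so did that of KEAP1, NQO1 and SRXN1. The windows of NQO1 and SRXN1 held 0 matches. Sequence outside the 250 bases was not searched, so a window without a match does not show that a gene lacks the element. In GENCODE 29, 26 bases of the GCLM window and 0 bases of the TXNRD1 window shown lay in an annotated exon. The other TXNRD1 window lay in annotated exons over all its 250 bases.
GCLM, chr1:93909431-93909680, minus strand: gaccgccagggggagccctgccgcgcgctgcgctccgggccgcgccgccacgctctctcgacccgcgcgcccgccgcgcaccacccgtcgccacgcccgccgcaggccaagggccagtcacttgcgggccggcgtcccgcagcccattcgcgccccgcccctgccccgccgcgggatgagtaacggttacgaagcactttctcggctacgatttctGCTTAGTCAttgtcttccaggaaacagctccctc
TXNRD1, chr12:104215529-104215778, plus strand: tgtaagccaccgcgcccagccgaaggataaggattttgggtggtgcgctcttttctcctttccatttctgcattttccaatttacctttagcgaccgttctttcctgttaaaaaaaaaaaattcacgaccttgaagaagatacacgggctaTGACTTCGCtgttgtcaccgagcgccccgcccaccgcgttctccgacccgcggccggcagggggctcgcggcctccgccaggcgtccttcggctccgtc

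Libraries held 46903984 to 56675539 counts each. IRAK4 averaged 52.2 CPM (read counts scaled to library size by edgeR with TMM factors) in wild type under DMSO and 8.26 CPM in knockout under DMSO, and after CC-885 the means were 72.8 and 30.7 CPM. For marker genes, levels are counts divided by library totals only, with no TMM scaling. All 12 myeloid markers listed had counts, although CD14 (group means of 1.2 to 3.74 CPM) and MPO (2.34 to 10.1 CPM) were low. The summed level of the 12 per library was 2906 to 2983 CPM in wild type under DMSO and 1819 to 1910 CPM under CC-885, and 3477 to 4445 and 1511 to 1533 CPM in knockout, so the sum was lower under CC-885 in both genotypes, whereas mean CD14 was higher (in wild type 1.2 CPM with DMSO and 2.51 CPM with CC-885, in knockout 3.03 and 3.74 CPM). The part of this in the results was not tested. Markers of T and NK cells summed to at most 20.9 CPM and of B cells to at most 8.61 CPM, with CD3E, CD3G and MS4A1 at 0 in every group. Markers of epithelial, stromal and endothelial cells summed to 92.5 to 460.1 CPM, nearly all of it PECAM1, with COL1A2, COL3A1 and CDH5 at 0. Wild-type CC-885 replicate 3 stood apart: its counts differed from the other 2 libraries of its group by a chi-square of 62.3 and 76.1 per degree of freedom, against 5.05 between those 2. Library names begin with 51 or 52, a prefix the labels do not explain, and all 3 knockout CC-885 libraries have 51. Wild-type CC-885 replicate 3 has 52, whereas the other 2 libraries of its group have 51. With the prefix as a covariate, 0 of the 50 log2 fold changes of the members changed their call.

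CC-885 split the 10 genes evenly, and in the same way in both genotypes. NFE2L2, HMOX1, GCLC, SQSTM1 and FTH1 rose, while KEAP1, NQO1, GCLM, TXNRD1 and SRXN1 fell. The largest rises were those of NFE2L2, 8.29-fold in wild type and 9.39-fold in knockout, and of SQSTM1, 8.17-fold and 13.6-fold. In wild type the 5 rises stand against a background of 35.7% of all tested genes called higher, and the 5 falls against 36.6% called lower. The backgrounds in knockout were 38.9% and 40%. With a change of at least 2-fold also required, wild type had 4 members higher (background 16.6%) and its 5 falls were all smaller than 2-fold (background 12.7% lower), and knockout had 3 higher (background 21.5%) and 4 lower (background 20.2%). The median log2 fold change of the 10 genes was 0.26 in wild type and -0.08 in knockout, and that of all genes was -0.03 in both. In these bulk libraries fewer cells with a transcript and less of it per cell cannot be told apart, and all changes are relative to the bulk of genes.

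**Figure D1:**
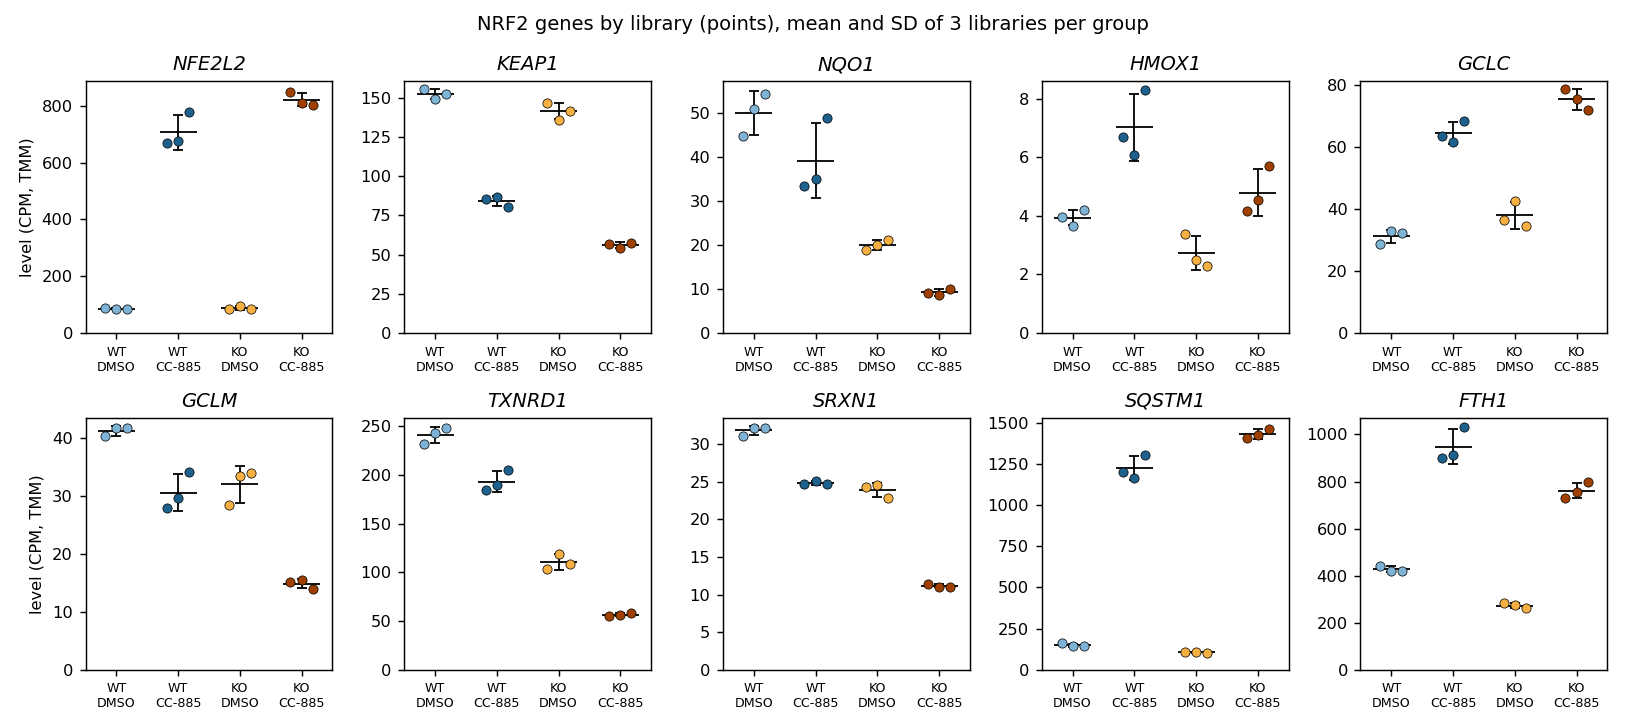
Level of each gene in CPM with TMM scaling (vertical axis, from 0) in the 4 groups (horizontal axis); points are libraries and bars the mean and SD of 3. NFE2L2 and SQSTM1 stand far higher in both CC-885 groups, and TXNRD1 and SRXN1 step down from wild type under DMSO to knockout under CC-885.

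NFE2L2 (chromosome 2, 177230303 to 177264727, GRCh38.p14) encodes NRF2. Its level was 87.4, 85.1 and 83.4 CPM in the wild-type DMSO libraries and 669, 675 and 778 CPM under CC-885. In knockout it was 83.5, 94.5 and 84.4 CPM with DMSO and 848, 811 and 804 CPM with CC-885. Every CC-885 library was far above every DMSO library. The log2 fold change was 3.05 ± 0.07 (SE; edgeR adjusted p = 9.49e-15) in wild type and 3.23 ± 0.07 (adjusted p = 2.63e-15) in knockout. Under DMSO the genotypes overlapped (log2 difference 0.04 ± 0.07, edgeR adjusted p = 0.688). Under CC-885 knockout was 1.16-fold higher (edgeR adjusted p = 0.0117), a call lost without wild-type CC-885 replicate 1 (0.0539) or replicate 2 (0.0551). The difference between the responses, 0.18 ± 0.10 on the log2 scale, was not called (edgeR adjusted p = 0.163), and it was 0.25 (adjusted p = 0.0154) without wild-type CC-885 replicate 3 and 0.27 (adjusted p = 0.0383) among libraries with prefix 51. Exons of NFE2L2 share 54 bases with AGPS on the other strand, whose mean level fell from 115 to 82.8 CPM in wild type and from 83.2 to 64.8 CPM in knockout.

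KEAP1 (chromosome 19, 10486125 to 10503356), the inhibitor, moved the other way. Wild-type libraries held 156, 149 and 152 CPM with DMSO and 85.3, 86.6 and 80.6 CPM with CC-885. Knockout libraries held 146, 136 and 142 CPM and 56.98, 54.0 and 57.4 CPM. The order of the 4 groups was therefore wild type and knockout under DMSO, then wild type and last knockout under CC-885. Wild type and knockout under DMSO were not called different (log2 difference -0.11 ± 0.05, edgeR adjusted p = 0.108). Knockout under DMSO was not tested against wild type under CC-885. The fall was 1.81-fold in wild type (log2 -0.86 ± 0.05, edgeR adjusted p = 6.71e-10) and 2.52-fold in knockout (log2 -1.33 ± 0.06, adjusted p = 1.95e-12). It was larger in knockout by 0.48 on the log2 scale (interaction -0.48 ± 0.08, edgeR adjusted p = 0.000231).

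SQSTM1 (chromosome 5, 179806393 to 179838078) encodes p62, an autophagy receptor that binds KEAP1 and takes it to autophagosomes. It was at 161, 145 and 144 CPM in DMSO-treated wild type and at 1201, 1167 and 1306 CPM after CC-885. Knockout began lower, at 109, 107 and 98.8 CPM, and ended higher, at 1406, 1423 and 1462 CPM, with no overlap in either treatment. Its log2 fold change was 3.03 ± 0.07 in wild type and 3.77 ± 0.07 in knockout (edgeR adjusted p = 5.19e-15 and 5.28e-16), a difference of 0.74 ± 0.09 (adjusted p = 2.23e-05). Of the 10 genes, only SQSTM1 was called lower in knockout under DMSO (log2 -0.51 ± 0.06, edgeR adjusted p = 7.6e-06) and higher under CC-885 (0.22 ± 0.06, adjusted p = 0.0068). Exons of SQSTM1 share bases on the other strand with MGAT4B (105 bases) and MRNIP (1582 bases, listed as C5orf45), which averaged 59.6 to 88.6 CPM and 3 to 4.71 CPM.

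NQO1 (chromosome 16, 69709401 to 69726560), a quinone reductase and one of the most used reporters of NRF2 activity, differed more by genotype than by treatment. The 3 wild-type DMSO libraries had 44.8, 51.0 and 54.5 CPM and the CC-885 libraries 33.5, 35.0 and 49.0 CPM. Knockout had 18.9, 20.0 and 21.1 CPM with DMSO and 9.08, 8.60 and 10.0 CPM with CC-885, below every wild-type library. Under DMSO knockout was 2.5-fold lower (log2 -1.32 ± 0.13, edgeR adjusted p = 5.86e-07), and under CC-885 4.24-fold lower (log2 -2.08 ± 0.13, adjusted p = 5.7e-09). CC-885 lowered it 2.17-fold in knockout (log2 -1.11 ± 0.13, edgeR adjusted p = 1.41e-06). In wild type the groups overlapped, because replicate 3 under CC-885 lay among the DMSO libraries, and the change was -0.36 ± 0.12 (edgeR adjusted p = 0.0171). Without that library it was -0.55 (edgeR adjusted p = 6.96e-06). Without wild-type CC-885 replicate 1 or 2, or without wild-type DMSO replicate 3, the call was lost (edgeR adjusted p = 0.0764, 0.0733 and 0.0732), as it was when only the groups compared entered the fit (0.074). The interaction was -0.76 ± 0.18 (edgeR adjusted p = 0.00441).

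HMOX1 (chromosome 22, 35381096 to 35394207), which breaks down haem, was expressed at a low level, with 116 to 410 counts per library. It was at 3.98, 3.66 and 4.18 CPM in DMSO-treated wild type and at 6.69, 6.07 and 8.29 CPM after CC-885. Knockout libraries had 3.38, 2.50 and 2.30 CPM and then 4.16, 4.53 and 5.69 CPM, so each CC-885 library was above each DMSO library of its genotype. The rise was 1.78-fold in wild type and 1.76-fold in knockout (edgeR adjusted p = 0.000214 and 0.000331). The interaction was -0.02 with an approximate 95% interval (2 SE to either side) of -0.48 to 0.45. Knockout was lower under CC-885 (log2 -0.55 ± 0.16, edgeR adjusted p = 0.00709) and under DMSO (-0.53 ± 0.17, adjusted p = 0.0156). The DMSO call was lost without wild-type DMSO replicate 3 or knockout DMSO replicate 2 or 3 (edgeR adjusted p = 0.0572 to 0.0722), among libraries with prefix 51 alone (0.0899) and under upper-quartile scaling (-0.41, 0.0547).

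GCLC and GCLM encode the catalytic and the modifier subunit of glutamate-cysteine ligase, the first enzyme of glutathione synthesis, and they parted under CC-885. GCLC (chromosome 6, 53497341 to 53545101) was at 28.7, 32.8 and 32.2 CPM in DMSO-treated wild type and 63.5, 61.6 and 68.4 CPM after CC-885. In knockout it was at 36.5, 42.8 and 34.7 CPM and 78.9, 75.5 and 72.1 CPM. It rose 2.06-fold in wild type and 1.99-fold in knockout (edgeR adjusted p = 9.51e-09 and 1.14e-08), and the interaction was -0.06 with an approximate 95% interval of -0.29 to 0.18.

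GCLM (chromosome 1, 93885199 to 93909430) was at 40.3, 41.8 and 41.7 CPM in DMSO-treated wild type and 27.9, 29.6 and 34.1 CPM after CC-885. Knockout libraries held 28.4, 33.5 and 34.0 CPM and 15.1, 15.6 and 13.9 CPM, so knockout under DMSO overlapped wild type under CC-885. The fall was 1.35-fold in wild type (log2 -0.43 ± 0.09, edgeR adjusted p = 0.000309) and 2.15-fold in knockout (log2 -1.10 ± 0.09, adjusted p = 9.21e-09), with an interaction of -0.67 ± 0.12 (adjusted p = 0.000708). Both subunits also differed by genotype under DMSO, GCLC higher in knockout by 0.28 ± 0.08 (edgeR adjusted p = 0.00981) and GCLM lower (log2 -0.37 ± 0.09, adjusted p = 0.0024). The GCLC difference was not called without wild-type DMSO replicate 1 (edgeR adjusted p = 0.0505) or knockout DMSO replicate 2 (0.0663), and it was 0.46 (adjusted p = 0.000801) among libraries with prefix 51. Under upper-quartile scaling the GCLM difference was -0.24 (edgeR adjusted p = 0.0191). Under CC-885 GCLC was 1.17-fold higher in knockout (edgeR adjusted p = 0.0245), with the call lost without wild-type CC-885 replicate 1 or 2 or knockout CC-885 replicate 1 or 2 (0.0584 to 0.0897), and GCLM was 2.05-fold lower (adjusted p = 8.72e-08).

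TXNRD1 (chromosome 12, 104215779 to 104350307) encodes the cytosolic thioredoxin reductase, which keeps thioredoxin reduced with electrons from NADPH. It was at 232, 243 and 248 CPM in DMSO-treated wild type and 184, 190 and 205 CPM after CC-885. Knockout had 103, 119 and 109 CPM and 55.4, 56.3 and 58.2 CPM, and no 2 groups overlapped. Knockout was 2.18-fold lower under DMSO (log2 -1.12 ± 0.06, edgeR adjusted p = 9.02e-10) and 3.41-fold lower under CC-885 (log2 -1.77 ± 0.06, adjusted p = 9.24e-12). CC-885 lowered it by 1.25-fold in wild type (log2 -0.32 ± 0.06, edgeR adjusted p = 0.000233) and by 1.95-fold in knockout (log2 -0.96 ± 0.06, adjusted p = 6.08e-10), and these falls differed (interaction -0.65 ± 0.09, adjusted p = 5.62e-05).

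SRXN1 (chromosome 20, 646615 to 653200) encodes sulfiredoxin, which repairs over-oxidised peroxiredoxins. In GENCODE 29, 2292 of its 2698 exonic bases are shared with AL121758.1 on the same strand, which is not among the counted symbols. Reads from the shared bases cannot be assigned to either gene alone. SRXN1 levels are given with this limit. Its libraries were tight, at 31.1, 32.2 and 32.2 CPM in DMSO-treated wild type and 24.7, 25.1 and 24.8 CPM after CC-885. Knockout held 24.3, 24.6 and 22.8 CPM under DMSO, just below treated wild type, and 11.4, 11.06 and 11.05 CPM under CC-885. It fell by 1.28-fold in wild type (log2 -0.36 ± 0.06, edgeR adjusted p = 0.000102) and by 2.14-fold in knockout (log2 -1.09 ± 0.07, adjusted p = 2.09e-10). The interaction of -0.74 ± 0.09 (edgeR adjusted p = 2.38e-05) came with a knockout 1.33-fold lower under DMSO (adjusted p = 6.09e-05) and 2.22-fold lower under CC-885 (adjusted p = 9.02e-10).

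FTH1 (chromosome 11, 61964285 to 61967634), the ferritin heavy chain that oxidises iron for storage, rose in both genotypes. Wild type had 442, 421 and 421 CPM with DMSO and 899, 911 and 1033 CPM with CC-885. Knockout had 282, 275 and 260 CPM and 730, 757 and 796 CPM, below wild type at each treatment. The rise was 2.21-fold in wild type (log2 1.15 ± 0.06, edgeR adjusted p = 1.48e-10) and 2.79-fold in knockout (log2 1.48 ± 0.06, adjusted p = 3.81e-12), with an interaction of 0.34 ± 0.09 (adjusted p = 0.00888). Knockout was lower by 0.65 ± 0.06 on the log2 scale under DMSO (edgeR adjusted p = 4.83e-07) and by 0.32 ± 0.06 under CC-885 (adjusted p = 0.000504). FTH1 has 25 processed copies named as pseudogenes in GENCODE 29, 2 of them in the count table, and shares 1267 exonic bases with BEST1 on the other strand, so its level is uncertain where reads could be split. BEST1, far below FTH1, averaged 10.4 CPM in wild type with DMSO and 43.0 CPM with CC-885, and 10.8 CPM and 15.5 CPM in knockout.

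The knockout was compared with wild type under each treatment to see whether the pathway differed before and after CC-885. Under DMSO 7 of the 10 genes were called lower in knockout (background 28.4% of all genes) and GCLC was called higher (background 21.3%). NFE2L2 and KEAP1 were not called. The falls of at least 2-fold were those of NQO1 and TXNRD1, 2 of 10 against a background of 6.68%. TXNRD1 lies on chromosome 12, as does IRAK4 (43758951 to 43789541). Whether the shared chromosome has a part in its lower level was not tested. Under CC-885 7 genes were again lower (background 30.8%): KEAP1 joined and SQSTM1 left. NFE2L2, GCLC and SQSTM1 were higher (background 27.8%), a count of 3 that dropped to 1 without wild-type CC-885 replicate 1 or 2. NQO1, GCLM, TXNRD1 and SRXN1 were at least 2-fold lower, 4 of 10 against a background of 9.63%. The median log2 difference of the 10 genes was -0.46 under DMSO, where that of all genes was -0.06, and -0.57 under CC-885, where it was -0.02. Upper-quartile scaling moved the median of all genes under DMSO by 0.123 and the share of calls that were higher from 42.9% to 60.7%.

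**Figure D2:**
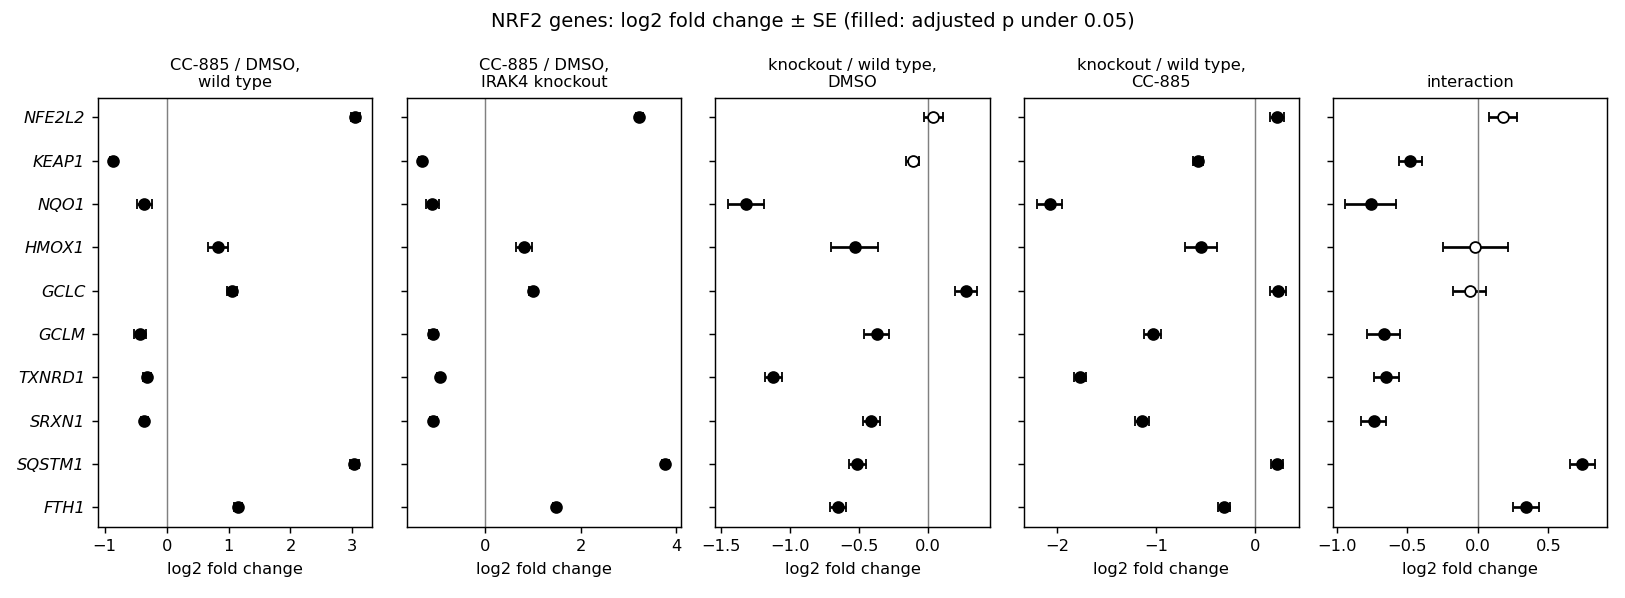
Log2 fold change (horizontal axis) with SE of the 10 genes in the 5 comparisons; filled points have an edgeR adjusted p under 0.05, and each panel has its own scale. The interaction panel shows KEAP1, NQO1, GCLM, TXNRD1 and SRXN1 below 0 and SQSTM1 and FTH1 above 0.

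The difference between the responses was tested as the interaction, the response in knockout minus that in wild type. Negative values were called for 5 genes (background 16.8% of all genes), the same 5 that fell in both genotypes: KEAP1, NQO1, GCLM, TXNRD1 and SRXN1. Positive values were called for SQSTM1 and FTH1 (background 17.9%), both of which rose in both genotypes. NFE2L2, HMOX1 and GCLC were not called. Upper-quartile scaling moved the share of positive values among all called genes from 51.6% to 39.7%, and the calls of the 10 genes stood under it. The interaction uses all 4 groups, so it shares libraries with each response.

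A wider list of 62 pathway genes, of which 58 were tested, placed the 10 genes among their partners. The 4 not tested had few counts in the 12 libraries together: GPX2 had 2, AKR1B10 had 1, UGT1A6 had 0 and ABCG2 had 57. In wild type 12 of the 58 rose under CC-885 and 32 fell, and in knockout 11 rose and 42 fell. The falls made up 55.2% and 72.4% of the list, against the 36.6% and 40% of all genes given above. Their median log2 fold change was -0.50 and -0.68, below the -0.03 of all genes. The rises made up 20.7% and 19%, against 35.7% and 38.9%. Knockout against wild type gave 16 higher (27.6%, background 21.3%) and 19 lower (32.8%, background 28.4%) under DMSO, and 10 higher (17.2%, background 27.8%) and 32 lower (55.2%, background 30.8%) under CC-885. The interaction was called negative for 24 (41.4%, background 16.8%) and called positive for 2 (3.45%, background 17.9%). The count of 16 was 10 among libraries with prefix 51. The sum of myeloid markers given above was also lower in the CC-885 groups, and its part in these counts was not tested.

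**Figure D3:**
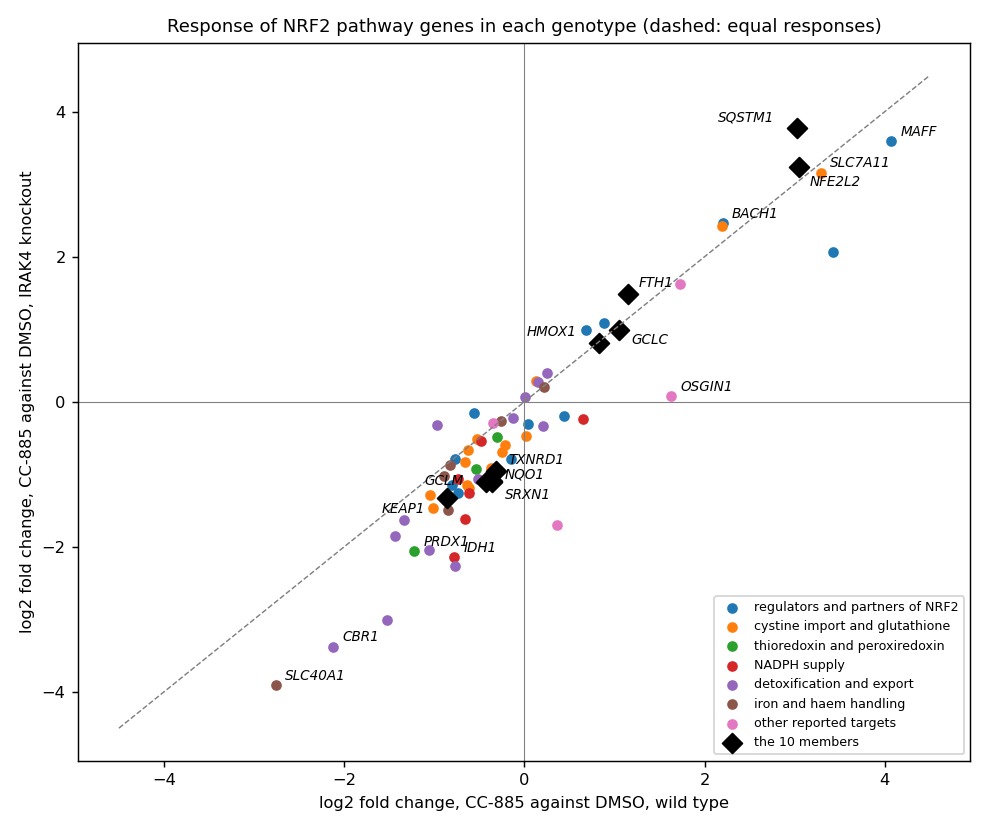
Log2 fold change under CC-885 in wild type (horizontal axis) and in knockout (vertical axis) for the 10 genes (diamonds) and the 58 genes of the wider list (circles, coloured by role); the dashed line marks equal responses. Most genes that fell lie below the line, as do OSGIN1 at 1.63 and 0.08 and SLC40A1 at -2.76 and -3.91.

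Among the 12 regulators and partners of NRF2, 6 rose in wild type and 4 fell, and in knockout 5 rose and 7 fell. The shares were 50% and 33.3% in wild type, where 35.7% of all genes rose and 36.6% fell, and 41.7% and 58.3% in knockout, where 38.9% rose and 40% fell. MAFF, a small MAF protein that pairs with NRF2 on DNA, was at 1.45, 1.51 and 1.57 CPM in DMSO-treated wild type and 24.5, 26.6 and 25.2 CPM after CC-885. Knockout libraries held 2.16, 1.71 and 1.75 CPM and 25.1, 20.5 and 21.9 CPM, and the CC-885 libraries lay clear of the DMSO libraries in both genotypes. This was 16.8-fold in wild type (edgeR adjusted p = 4.94e-14) and 12-fold in knockout (adjusted p = 7.11e-14). MAFG, another small MAF, had a log2 fold change of -0.15 ± 0.11 in wild type (edgeR adjusted p = 0.211, and 0.0156 at -0.28 without wild-type CC-885 replicate 1) and fell in knockout (-0.79 ± 0.11, adjusted p = 9.48e-06).

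BACH1, the repressor that competes with NRF2, rose from 34.8, 35.4 and 33.2 CPM to 136, 147 and 192 CPM in wild type, and from 36.2, 43.0 and 43.5 CPM to 238, 226 and 212 CPM in knockout. That was 4.6-fold and 5.5-fold (edgeR adjusted p = 2.38e-10 and 3.96e-11), so the RNA of both factor and competitor was higher in treated cells. Under CC-885 BACH1 was 1.42-fold higher in knockout (edgeR adjusted p = 0.000921), and its interaction, 0.26 (adjusted p = 0.208), was 0.42 (adjusted p = 0.00189) without wild-type CC-885 replicate 3. CUL3, the scaffold of the ligase that degrades NRF2, fell by 0.56 ± 0.06 on the log2 scale in wild type (edgeR adjusted p = 6.09e-07). In knockout its fall was 0.16 ± 0.06 (log2 -0.16, edgeR adjusted p = 0.0307), a call lost without knockout DMSO replicate 2 (0.141) or knockout CC-885 replicate 2 (0.0814) or 3 (0.106), and the interaction was 0.40 ± 0.09 (adjusted p = 0.00223). SYVN1, a ubiquitin ligase of the ER that also degrades NRF2, was 1.5-fold higher in knockout under DMSO (edgeR adjusted p = 5.98e-05). GSK3B, a kinase that marks NRF2 for degradation, had an interaction of 0.31 ± 0.08 (edgeR adjusted p = 0.00794), and of 0.23 (adjusted p = 0.0614) with no filter on low counts.

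SLC7A11, the cystine carrier of system xc-, was at 12.2, 20.2 and 17.2 CPM in DMSO-treated wild type and 146, 158 and 183 CPM after CC-885. In knockout it was at 3.58, 4.74 and 5.66 CPM and 46.3, 41.04 and 37.6 CPM. All knockout libraries were below the wild-type libraries of the same treatment. It rose 9.81-fold in wild type and 8.93-fold in knockout (edgeR adjusted p = 2.27e-08 and 4.02e-08), from a level that was 3.55-fold lower in knockout (adjusted p = 2.18e-05) and stayed 3.9-fold lower (adjusted p = 2.97e-06).

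Of the 14 genes of cystine import and glutathione, 2 rose in wild type, SLC7A11 and its partner SLC3A2, and 8 fell. In knockout 3 rose, with glutathione synthetase GSS added, and 10 fell. The falls were 57.1% and 71.4% of the group, where 36.6% and 40% of all genes fell, and the rises 14.3% and 21.4%, where 35.7% and 38.9% rose. The GSS rise of 0.28 was 0.14 under upper-quartile scaling (edgeR adjusted p = 0.0516). GSTO1, a glutathione transferase, was 2.64-fold lower in knockout under CC-885 (edgeR adjusted p = 4.81e-09). GGT1, which breaks down glutathione outside the cell, was 2.07-fold higher in knockout under DMSO (edgeR adjusted p = 1.38e-09) and 2.02-fold higher under CC-885 (adjusted p = 1.85e-09). GSS was 1.65-fold higher in knockout under CC-885 (edgeR adjusted p = 3.83e-08), and GSTM3 1.93-fold higher under DMSO (adjusted p = 3.64e-08).

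Of the 3 genes of thioredoxin and the peroxiredoxins, 2 were called lower in wild type and 3 in knockout, where 36.6% and 40% of all genes were. PRDX1, a peroxiredoxin that SRXN1 repairs, fell by 2.33-fold in wild type and by 4.18-fold in knockout (edgeR adjusted p = 3.94e-11 and 6.24e-14). TXN, thioredoxin itself, was at 192, 186 and 204 CPM in DMSO-treated wild type and at 101, 106 and 195 CPM after CC-885, where replicate 3 was alone at the level of the DMSO libraries. Its log2 fold change of -0.54 ± 0.23 was not called (edgeR adjusted p = 0.0569) and was -0.91 (adjusted p = 9.9e-08) without that library. In knockout TXN fell (log2 -0.93 ± 0.23, edgeR adjusted p = 0.00372).

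The enzymes that supply NADPH, on which NQO1 and TXNRD1 run, fell in 5 of 6 cases in wild type, with ME1 rising, and in 6 of 6 in knockout (36.6% and 40% of all genes fell). The knockout fall of ME1, malic enzyme, was -0.24 on the log2 scale with overlapping libraries (edgeR adjusted p = 0.0378). That call was lost in 8 of 22 alternative fits, among them those without knockout DMSO replicate 2 or 3 or any 1 of the knockout CC-885 libraries (edgeR adjusted p = 0.0559 to 0.151). IDH1, the cytosolic isocitrate dehydrogenase, fell by 1.72-fold in wild type and by 4.42-fold in knockout (edgeR adjusted p = 4.24e-07 and 1.76e-12), an interaction of -1.36 ± 0.12 (adjusted p = 1.43e-06). The interaction was called negative for 5 of the 6 (background 16.8%), the smallest of the called being that of TALDO1, a transaldolase, at -0.31 ± 0.08 (edgeR adjusted p = 0.00704).

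**Figure D4:**
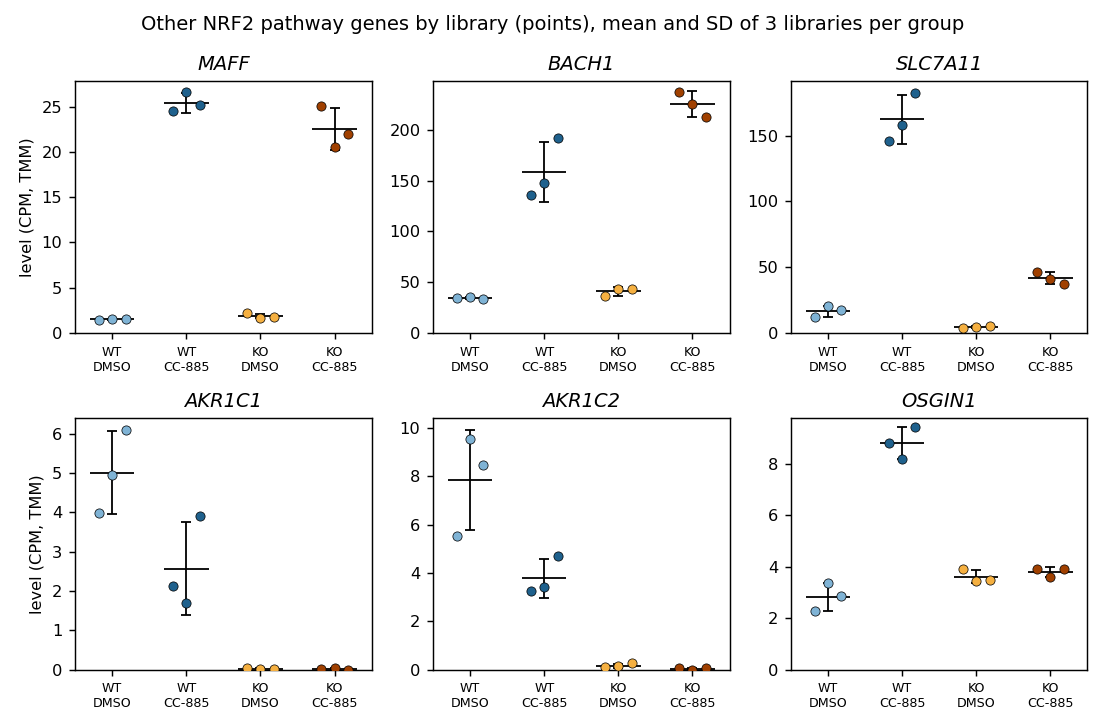
Level in CPM with TMM scaling (vertical axis, from 0) of 6 genes of the wider list in the 4 groups (horizontal axis); points are libraries and bars the mean and SD of 3. MAFF, BACH1 and SLC7A11 rise in both genotypes, OSGIN1 rises in wild type, and AKR1C1 and AKR1C2 are close to 0 in all 6 knockout libraries.

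Detoxifying enzymes and exporters fell in 7 of 13 cases in wild type and in 9 of 13 in knockout, where PTGR1 rose. These falls are 53.8% and 69.2% of the group, beside 36.6% and 40% of all genes. CBR1, a carbonyl reductase, fell by 4.34-fold in wild type and by 10.4-fold in knockout (edgeR adjusted p = 2.38e-11 and 1.91e-13; interaction -1.26 ± 0.15, adjusted p = 1.77e-05), and it was 3.19-fold lower in knockout than in wild type under CC-885 (adjusted p = 8.49e-09). ABCC4, an exporter of organic anions, fell by 2.72-fold in wild type (edgeR adjusted p = 5.91e-10).

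The aldo-keto reductases AKR1C1 and AKR1C2, which reduce steroids and lipid aldehydes, were nearly missing from the knockout under either treatment. AKR1C1 had 186, 246 and 338 counts in the wild-type DMSO libraries against 2, 1 and 1 in knockout, a level 0.52% of wild type (exact 95% interval 0.141 to 1.34%). Under CC-885 it had 109, 87 and 193 counts against 1, 2 and 0, or 0.783% (0.161 to 2.31%). AKR1C2 in knockout was at 2.24% (1.47 to 3.28%) of wild type under DMSO and at 1.06% (0.388 to 2.33%) under CC-885, and AKR1C3 at 22.1% (16.3 to 29.7%) and 17.4% (9.77 to 29.4%). These intervals cover counting error only. The 3 genes are close copies, so how reads were shared among them is uncertain. Within wild type CC-885 lowered AKR1C1 by 1.96-fold (log2 -0.97 ± 0.26, edgeR adjusted p = 0.00334).

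Iron and haem genes fell in 5 of 6 cases in each genotype (36.6% and 40% of all genes fell), and FTL rose. The falls of BLVRB, a biliverdin reductase, were -0.26 in wild type and -0.27 in knockout on the log2 scale, and their calls were lost in 10 and in 5 of 22 alternative fits. Single libraries ended the call in wild type (without wild-type DMSO replicate 1 or 3, wild-type CC-885 replicate 1 or 2, knockout DMSO replicate 1 or 2 or knockout CC-885 replicate 2, edgeR adjusted p = 0.0516 to 0.149) and in knockout (without DMSO replicate 1 or 2 or CC-885 replicate 1 or 2, 0.0791 to 0.158). SLC40A1, which encodes ferroportin, the iron exporter, fell by 6.77-fold in wild type and by 15-fold in knockout (edgeR adjusted p = 2.52e-11 and 4.86e-13), the largest falls of the wider list among genes reaching 5 CPM. FTL, the ferritin light chain, rose by 1.16-fold in wild type and by 1.15-fold in knockout (edgeR adjusted p = 0.0212 and 0.0294), and each call was lost in 8 of 22 alternative fits. Single libraries ended the call in wild type (without DMSO replicate 2 or 3, or CC-885 replicate 1 or 2, edgeR adjusted p = 0.0596 to 0.0821) and in knockout (without DMSO replicate 3, or CC-885 replicate 2 or 3, 0.0692 to 0.167). OSGIN1, an oxidative stress response gene, had 2.27, 3.36 and 2.87 CPM in DMSO-treated wild type and 8.79, 8.18 and 9.43 CPM after CC-885. In knockout it had 3.90, 3.44 and 3.49 CPM and 3.91, 3.59 and 3.93 CPM, and the libraries of both treatments overlapped. The interaction of -1.55 ± 0.19 (edgeR adjusted p = 1.81e-05) was the lowest among called genes of the wider list that reach 5 CPM in a group.

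For 4 of the genes the closest patterns over the 12 libraries were sought among 10624 genes outside both lists, as the mean absolute difference in log2 CPM after centring each gene. NFE2L2 was closest to LRIF1 (0.0389) and BCL6 (0.082), whose mean levels in wild type went from 44.7 to 383 CPM and from 6.67 to 53.5 CPM under CC-885. KEAP1 was closest to CDCA5 (0.0417) and SEPHS2 (0.0466). NQO1 was closest to MED21 (0.117) and RNF175 (0.144), and HMOX1 to TMEM161B-AS1 (0.135) and DNAJB1 (0.141). TMEM161B-AS1 is an antisense transcript, whose reads cannot be told apart from those of its partner if strand was not used. These distances are descriptions without a test, and the libraries share the 4 groups.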

How the data were processed

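PolyA RNA of THP-1 cells was sequenced as paired-end reads, per the labels' protocols. Raw counts, not normalized, were deposited for 12 libraries in 1 table by gene symbol. Per the submitters' processing notes, FastQC 0.11.2, HISAT2 2.0.5, featureCounts 1.5.2 and build GRCh38 were used, whereas the extraction protocol in the labels names a mouse build; the symbols are human. How strand, multiple matches and mates were handled is not given in the sources used here, and it can shift genes with copies or overlapping partners. The cell line tag counts upward from sample to sample, and titles were followed. Groups came from the titles.

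Genes were kept by filterByExpr (16010 of 30017 symbols, 53.3%), scaled by TMM (factors 0.941 to 1.05), and fitted with edgeR 4.0.16 (R 4.3.3, robust quasi-likelihood) with 1 coefficient per group over 12 libraries. The biological coefficient of variation was 0.0899. The 5 contrasts were tested, with Benjamini-Hochberg adjustment over all tested genes, and genes were called at an adjusted p under 0.05. SE was taken from the F statistic. The counting error of a level follows from 46903984 to 56675539 counts per library. Libraries of a group differed by more than counting error, with a chi-square of 4.1 to 76.1 per degree of freedom. The script was tested on simulated data. DESeq2 1.42.0, other scalings, filters, blocks, prefixes and leaving out each library were alternatives.

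The members and lists were chosen with earlier results of these data known. Named genes are the 10 members, 8 fixed genes of the wider list (BACH1, MAFF, MAFG, CUL3, SLC7A11, FTL, TXN and AKR1C1), and per comparison the 3 highest and 3 lowest called genes of that list reaching 5 CPM. PRDX1, AKR1C3, SLC3A2, ME1, PTGR1 and BLVRB, which no rule picked, were named after their values were seen. AKR1C2 met the rule only for knockout against wild type under DMSO. The erythroid marker list is not reported here.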

Additional observations from a re-analysis of the deposited data

Results flagged for a closer look

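The response to CC-885 differed between wild type and knockout, by the interaction term of the edgeR fit, for 7 of the 10 NRF2 genes and for 14 genes of the wider list that are named here, among the 24 with a called negative and the 2 with a called positive value. Of all tested genes, 16.8% had a called negative and 17.9% a called positive value. On the log2 scale, as the response in knockout minus that in wild type, KEAP1 was at -0.48, NQO1 at -0.76, GCLM at -0.67, TXNRD1 at -0.65 and SRXN1 at -0.74. For these 5 the fall was larger in knockout. SQSTM1 at 0.74 and FTH1 at 0.34 rose more in knockout.

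In the wider list OSGIN1 was at -1.55, IDH1 at -1.36, CBR1 at -1.26, SLC40A1 at -1.15, ME1 at -0.89, PRDX1 at -0.84 and MAFG at -0.63. GSTM3 was at -0.49, MAFF at -0.48, ABCC4 at -0.41, SYVN1 at -0.35 and TALDO1 at -0.31. CUL3 was at 0.40 and GSK3B at 0.31. The MAFF difference was not called in 8 of 21 alternative fits, among them those without wild-type DMSO replicate 1 or 2, wild-type CC-885 replicate 2, knockout DMSO replicate 1 or knockout CC-885 replicate 2 or 3 (edgeR adjusted p = 0.0577 to 0.0922). The SYVN1 difference was not called in 8 of 21 alternative fits, all of them without a single library: wild-type DMSO replicate 1 or 2, wild-type CC-885 replicate 1 or 2, knockout DMSO replicate 1 or 3 or knockout CC-885 replicate 1 or 2 (edgeR adjusted p = 0.0737 to 0.103). That of ABCC4 was not called in 6 of 21, without wild-type DMSO replicate 1, wild-type CC-885 replicate 2, or replicate 2 or 3 of either knockout group (edgeR adjusted p = 0.053 to 0.0667). GSK3B was at 0.23 (edgeR adjusted p = 0.0614) with no filter on low counts. No group had enough libraries for the test of single outlying samples, which needs 4.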

How the results depend on the processing

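Of 1090 alternative values of the 10 genes, 1067 kept direction and call, 21 lost the call, 2 gained one and 0 turned. Under DMSO, the count of members higher in knockout, 1, was 0 with the replicate block by library-name number and ranged from 0 to 1 when single libraries were left out. Under CC-885 that count, 3, ranged from 1 to 3 when single libraries were left out. In the wider list, the 16 genes higher in knockout under DMSO were 10 among libraries with prefix 51, where wild type under DMSO has 1 library, assumed to vary like the others. The 2 positive interactions were 1 with no filter on low counts and ranged from 2 to 4 when single libraries were left out, the 4 without wild-type CC-885 replicate 3. The cause was not tested. Not every same-numbered pair of libraries deviated together: the correlation of deviations was over 0.1 in 7 of 18 pairs by title number (median 0.03) and in 6 of 11 pairs by library-name number (median 0.14), against a median of -0.03 over other pairs. Pairing was taken as shown only if every pair was over 0.1. Noisy deviations can fail so strict a rule, so it does not settle whether libraries were paired. The replicate block by title number changed 0 of 50 calls of the members and left their counts in wild type at 5 higher and 5 lower; the block by library-name number ended 4 calls, NQO1 under CC-885 in wild type (-0.23, edgeR adjusted p = 0.0537) and, knockout against wild type, HMOX1 under DMSO (-0.51, 0.0684) and GCLC under DMSO (0.28, 0.0528) and CC-885 (0.21, 0.0737). Upper-quartile scaling moved the median of all genes by -0.148 in the knockout response. HMOX1 had 116 to 410 counts a library and AKR1C1 0 to 2 in knockout, which limits the precision of their values.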

Other observations

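Antioxidant genes outside the NRF2 lists also moved. Of all tested genes, 35.7% were called higher and 36.6% lower in wild type under CC-885, and 38.9% and 40% in knockout. SOD1, the cytosolic superoxide dismutase, fell by 1.57-fold in wild type and by 2.98-fold in knockout under CC-885 (edgeR adjusted p = 2.17e-06 and 4.18e-11), and the falls differed (interaction -0.92 ± 0.12, adjusted p = 2.64e-05). SOD2, the mitochondrial form, rose by 2.51-fold in wild type and by 1.67-fold in knockout (edgeR adjusted p = 1.81e-11 and 1.34e-08; interaction -0.59 ± 0.09, adjusted p = 0.000106). CAT, catalase, fell by 1.65-fold and by 2.19-fold (edgeR adjusted p = 1.57e-08 and 3.8e-11; interaction -0.41 ± 0.08, adjusted p = 0.00138). HMOX2, the constitutive haem oxygenase, fell by 2.14-fold and by 1.86-fold (edgeR adjusted p = 2.87e-09 and 2.04e-08), while HMOX1 rose.

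The mitochondrial thioredoxin branch held both directions. TXNRD2, the mitochondrial reductase, rose by 1.25-fold in wild type and by 1.32-fold in knockout (edgeR adjusted p = 0.000437 and 4.61e-05), opposite to TXNRD1. PRDX3, the mitochondrial peroxiredoxin, fell by 1.8-fold and by 2.64-fold (edgeR adjusted p = 4.99e-09 and 7.73e-12) and was 1.91-fold lower in knockout under DMSO (adjusted p = 7.1e-09). These genes come from a list of 8 fixed for comparison, of which GPX1 and PRDX2 complete the set: GPX1 had log2 fold changes of 0.25 in wild type (edgeR adjusted p = 0.0182) and 0.14 in knockout (adjusted p = 0.161), and PRDX2 of -0.78 and -0.97 (adjusted p = 1.42e-07 and 6.08e-09). The wild-type call of GPX1 was lost in 6 of 22 alternative fits, and its log2 fold change ranged from 0.07 to 0.3 over the 22.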
